A study of Mus musculus with 24 samples.

Results

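The effect of a TLR7 agonist on peptide-stimulated T cells was compared between 72 h and 24 h of culture. For each gene, the difference between agonist and peptide-alone libraries at 24 h was subtracted from the same difference at 72 h, so a negative value means that the agonist effect was lower at the later time. The comparison rests on 16 of the 24 RNA-seq libraries of the series, chosen by their group labels, with 4 libraries in each of 4 groups: peptide alone at 24 h, peptide with TLR7 agonist at 24 h, and the same pair at 72 h. The other 8 libraries, from cultures with a TLR2 agonist, entered the normalisation and the estimate of spread and nothing else.

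All 4 groups were splenocyte cultures of OT-1 mice, a strain with a transgenic T cell receptor on CD8 T cells that recognises an ovalbumin peptide, grown with peptide at 2 µg/mL. Agonists were added 1 h before the peptide. The protocol lists gardiquimod at 3 µg/mL and R848 at 10 µg/mL, both of which act on TLR7, and the labels do not say which was in these cultures. T cells were taken at each time by immunomagnetic negative selection, so B cells, dendritic cells and macrophages were present during culture and a remainder of them may be in the RNA. The labels do not say whether the 4 libraries of a group came from separate mice or cultures, and p-values therefore measure the spread between these libraries.

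TLR7 is an endosomal receptor for single-stranded RNA that signals through MyD88. In plasmacytoid dendritic cells and B cells this leads to type I interferon and inflammatory cytokines, and interferon acts on neighbouring cells, T cells included, through its receptor and a transcription factor complex downstream of it. That complex binds the interferon-stimulated response element (ISRE) in the promoters of antiviral genes such as the Mx, Slfn, Trim and Oas families. The T cell receptor separately drives early genes such as the Egr transcription factors and Dusp6, a phosphatase that acts on ERK.

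Promoter sequence is shown for 6 genes with a negative difference past the test and a match to the ISRE motif in their promoter. The ISRE was taken because the type I interferon list had more members past the test than any other list. The 6 were chosen after their values were seen, from 8 such genes with a match upstream of the start. Spp1 and Gm12185 were left out. The stretches come from RefSeq on GRCm38.p6, run 5′ to 3′ on the gene's strand, and carry the match in capitals with 40 bases on each side, or fewer where the annotated start comes first. The matches begin 120 bases before the start for Rsad2, 36 for Trim30a, 48 for Slfn8, 155 for Slfn5, 165 for Gbp5 and 35 for Ifi203. Rsad2 encodes viperin, an antiviral enzyme (chr12:26456523-26456612, minus strand). Trim30a encodes a tripartite-motif protein (chr7:104465194-104465269, minus strand). Slfn8 (chr11:83020811-83020898, minus strand) and Slfn5 (chr11:82951907-82951996, plus strand) are Schlafen genes induced by interferon. Gbp5 encodes a guanylate-binding protein (chr3:142496729-142496818, plus strand). Ifi203 encodes a member of the IFI200 family of DNA-binding proteins (chr1:173942493-173942567, minus strand).
Rsad2: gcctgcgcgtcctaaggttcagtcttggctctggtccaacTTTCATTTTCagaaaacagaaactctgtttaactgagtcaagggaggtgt
Trim30a: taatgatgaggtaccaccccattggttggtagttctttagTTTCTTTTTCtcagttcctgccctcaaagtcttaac
Slfn8: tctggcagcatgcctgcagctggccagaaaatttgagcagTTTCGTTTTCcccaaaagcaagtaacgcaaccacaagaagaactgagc
Slfn5: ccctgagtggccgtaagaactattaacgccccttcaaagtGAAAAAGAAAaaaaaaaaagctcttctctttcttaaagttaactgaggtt
Gbp5: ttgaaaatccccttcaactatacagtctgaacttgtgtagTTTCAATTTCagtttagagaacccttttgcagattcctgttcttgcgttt
Ifi203: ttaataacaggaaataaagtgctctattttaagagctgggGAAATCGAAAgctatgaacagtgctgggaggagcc

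The motif searched was TTTC, any 2 bases and TTTC, on both strands of the RefSeq promoter windows, which run from 250 bases before to 50 after a start. Among the genes with a negative difference past the test, 70 of 102 had a window, and 11 of these (15.7%) held the motif, 8 of them upstream of the start. Over all tested genes, 375 of 9743 with a window (3.85%) held it. In the list of type I interferon genes the motif was in 17 of 35 genes with a window (48.6%), and 0 of the 12 positive-difference genes with a window held it. The NF-kB motif (GGGA, any base, TTTCC) was in 1 of the 70 (1.43%, against 0.523% of all), the EGR motif GCGTGGGCG in 1 (1.43%, against 1.47%) and the GAS motif TTCNNNGAA in 9 (12.9%, against 8.21%). These are matches of letters, not measured binding sites.

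The 16 libraries held 10.5 to 25.9 M counts each (M stands for mega). Shallow libraries, with totals of 10.5 to 11.7 M counts, were 4 of them: peptide-alone 24 h replicate 4, agonist 24 h replicate 2, and agonist 72 h replicates 1 and 2. The T cell genes Cd8a (457 to 904 CPM, counts scaled by library total) and Cd3e (108 to 321 CPM) were abundant in every library, and Cd4 was at most 2 CPM. Along the first principal component, which held 60.2% of the variance, the remaining 24 h libraries lay at 85.9 to 98.7 and the remaining 72 h libraries at -90.5 to -56.5. Between them, at -20.5 to -1.21, lay 5 of the 16: peptide-alone 24 h replicates 1 and 3, agonist 24 h replicates 3 and 4, and peptide-alone 72 h replicate 4. With 3 libraries of the TLR2 groups they make 8 libraries that stand apart from both clusters, and calls were also made without these 8.

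Of 14560 tested genes, 118 (0.81%) passed an adjusted p of 0.05 for the difference between the times (edgeR quasi-likelihood test, Benjamini-Hochberg adjustment over all tested genes). The difference was negative for 102 (0.701% of tested genes) and positive for 16 (0.11%). With a change of at least 2-fold, 107 passed (0.735%), 92 of them negative. The median difference over all tested genes was -0.07 (log2), and 44.5% of tested genes had a positive difference. At the edge of the threshold stood Mpc1 inside (-1.04, adjusted p = 0.049) and Atxn7 outside (-1.04, adjusted p = 0.0509).

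Leaving out single libraries moved the number of genes past the threshold from 0 to 752. Without peptide-alone 72 h replicate 2 it was 0, with 1942 genes at an unadjusted p under 0.05 against 2323 in the fit of all libraries, and without agonist 72 h replicate 4 it was 1. The number was 752 without peptide-alone 72 h replicate 1, 247 without agonist 72 h replicate 3 and 181 without agonist 24 h replicate 4. It was 28, 19, 65 and 59 without peptide-alone 24 h replicates 2 and 3 and peptide-alone 72 h replicates 3 and 4. It was 42, 44, 23, 28 and 30 without agonist 24 h replicates 1, 2 and 3 and agonist 72 h replicates 1 and 2. Without the 5 shallow libraries (those 4 and 1 in a TLR2 group) it was 0, and 1171 genes had an unadjusted p under 0.05. On all libraries DESeq2 passed 457 genes, the 118 among them. Without the 8 libraries that stand apart 45 genes passed, 25 of them among the 118, and all 118 had the same sign, 116 with an unadjusted p under 0.05. The 118 were chosen by the fit of all libraries, which shares libraries with the reduced fit. Their kept signs therefore follow in part from that choice. Of 38 passing genes described below, 10 passed in the reduced fit too: Slfn8, Parp14, Trim25, Gbp10, Iigp1, Egr1, Egr2, Cflar, Fcmr and H2-DMb2. The other 28 lost the call without the 8 libraries, at adjusted p values of 0.0602 to 0.928.

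In the negative group, 98 of 102 genes had an agonist effect above 0 at 24 h and all 102 an effect below 0 at 72 h. The median effect was 0.56 (log2) at 24 h and -1.24 at 72 h, against -0.03 and -0.08 over all tested genes. An effect was termed reversed when its signs were opposite and both values at least 0.5, faded when it was at least 1 at 24 h and at most 0.5 times as large at 72 h, and arisen when the same held the other way round. By these terms 46 of the 102 were reversed, 29 arisen and 3 faded, and 24 fell in none of the classes. All of the 46 were higher at 24 h and lower at 72 h, as were 2.55% of tested genes. Over all tested genes 4.66% were reversed in either order, 7.28% arisen and 1.59% faded, and 47% had effects of the same sign at both times. These shares follow in part from the difference that selected the genes, and no test is attached to them.

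**Figure D1:**
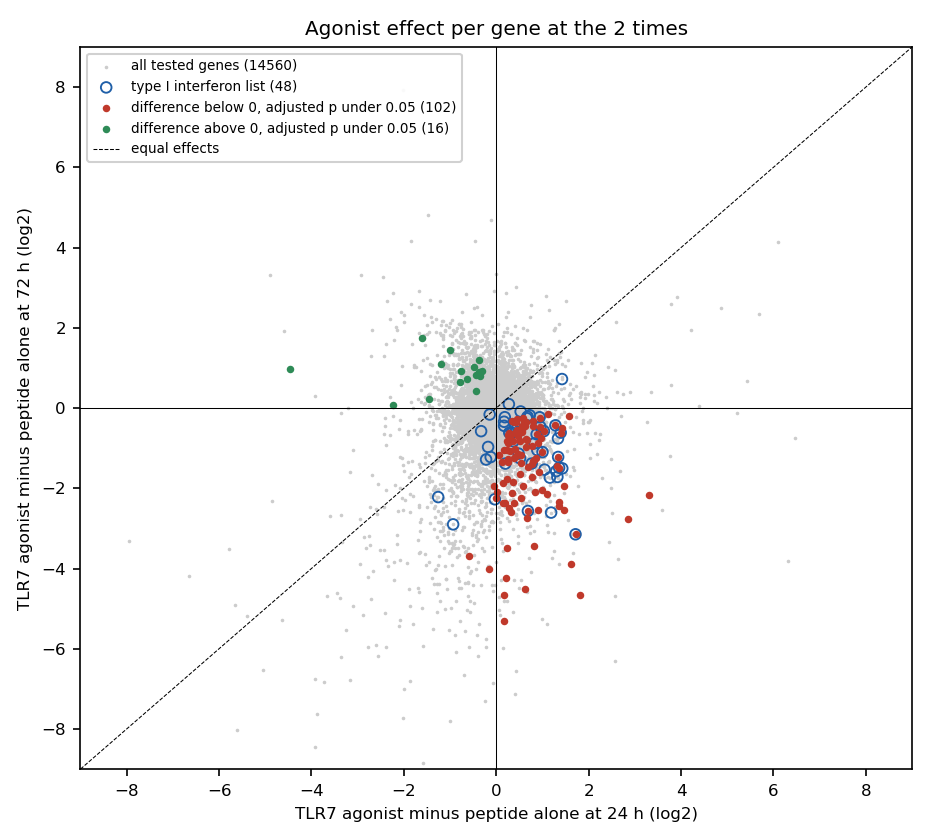
Agonist effect (log2, TLR7 agonist minus peptide alone) at 24 h on the horizontal axis and at 72 h on the vertical axis for 14560 genes, with the 102 negative and 16 positive differences filled and the 48 type I interferon genes ringed. The negative differences lie mostly right of 0 and below 0 (98 of 102), and the 16 positive ones lie left of 0 and above 0.

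Each time taken alone gave 32 genes past the threshold at 24 h (0.22%), 22 higher (0.151%) and 10 lower (0.0687%) with the agonist. At 72 h there were 527 (3.62%), 60 higher (0.412%) and 467 lower (3.21%). Of the 102 negative differences, 4 passed at 24 h and 72 at 72 h. Among the 118, 30 passed at neither time alone. The peptide-alone and agonist libraries did not overlap for 44 of the 102 at 24 h (6.64% of tested genes) and for 65 at 72 h (8.7%).

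Interferon-induced genes mostly had agonist effects above 0 at 24 h and below 0 at 72 h. In a list of 49 genes of the type I interferon response, 48 were tested and all 48 had a negative difference, 13 of them past the test (among them Trim25, Mx1, Rsad2, Parp9, Eif2ak2, Zbp1, Ifi44, Trim30a, Parp14, Slfn8, Slfn5 and Slfn1). The median effect of the 48 was 0.67 (log2) at 24 h and -0.79 at 72 h, and the median difference was -1.47 against -0.07 over all tested genes. At 24 h 40 of the 48 lay above 0 (46.1% of all tested genes), and at 72 h 46 lay below (58.5%). Of all tested genes 0.701% passed with a negative difference, and 44.5% had a positive one. Without the 8 libraries that stand apart, the medians were 1.19, -0.80 and -1.90, and 11 of the 48 passed. Over all alternatives the median difference stayed between -1.90 and -1.24 and 46 to 48 differences were negative, while the number past the test ran from 0 (without peptide-alone 72 h replicate 2, without agonist 72 h replicate 4, or without the shallow libraries) to 18 (DESeq2).

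The level of the list, as the mean log2 CPM of its genes, was 3.72 ± 0.47 (SD, n = 4) with peptide alone and 4.34 ± 0.39 with the agonist at 24 h. At 72 h it was 4.38 ± 0.16 with peptide alone and 3.42 ± 0.43 with the agonist. At 24 h the groups overlapped, since agonist replicate 4 (3.88) lay below peptide-alone replicates 1 (4.01) and 3 (4.08). At 72 h they did not, with a lowest peptide-alone value of 4.24 and a highest agonist value of 4.07. That highest value, agonist replicate 1, stood apart from the other 3 agonist libraries at 3.17 to 3.25.

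Trim25, a ubiquitin ligase of the RIG-I pathway (chromosome 11, 88999376 to 89020293, plus strand), had the smallest error relative to its difference among the 48. Its level at 24 h was 118, 95.5, 111 and 97.4 CPM in the 4 peptide-alone libraries and 136, 128, 174 and 108 CPM in the agonist libraries. By 72 h the levels were 142, 204, 193 and 154 CPM with peptide alone and 109.5, 92.7, 95.97 and 92.7 CPM with the agonist. The groups overlapped at 24 h, and at 72 h every agonist library lay below every peptide-alone library. The effect was 0.37 ± 0.14 (log2 ± SE) at 24 h and -0.83 ± 0.14 at 72 h, a difference of -1.20 ± 0.20 (adjusted p = 0.0165 with edgeR). Without peptide-alone 72 h replicate 2 the adjusted p was 0.0525, and without agonist 72 h replicate 4 it was 0.0558.

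Parp14, an ADP-ribosyltransferase with antiviral roles (chromosome 16, 35832874 to 35871544, minus strand), separated the groups at both times. It stood at 68.9, 55.6, 65.6 and 48.7 CPM with peptide alone and 134, 127, 102 and 75.2 CPM with the agonist at 24 h. At 72 h the values were 64.1, 85.7, 75.2 and 72.7 CPM and 57.8, 45.2, 38.8 and 47.5 CPM. Every agonist library was above the peptide-alone libraries at 24 h and below them at 72 h. The difference was -1.53 ± 0.28 (adjusted p = 0.018 with edgeR). It passed in all leave-outs but 3, at 0.0506 without peptide-alone 24 h replicate 2, 0.0667 without peptide-alone 72 h replicate 2 and 0.0651 without agonist 72 h replicate 4.

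Slfn8 showed the same separation with the larger part of the change at 24 h. With peptide alone it measured 27.7, 18.9, 30.9 and 16.9 CPM at 24 h and 30.8, 41.5, 30.4 and 28.2 CPM at 72 h. With the agonist it measured 79.9, 77.2, 53.9 and 37.9 CPM at 24 h and 27.4, 20.5, 18.8 and 19.03 CPM at 72 h. No agonist value fell within the peptide-alone range at either time. The 24 h effect was 1.40 ± 0.28 (adjusted p = 0.0411) and the 72 h effect -0.61 ± 0.28 (adjusted p = 0.241), with a difference of -2.01 ± 0.40 (adjusted p = 0.0248 with edgeR). This call was lost in 7 of 16 leave-outs, with differences of -2.02 to -1.81, and the difference was -2.82 without the libraries that stand apart.

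Rsad2, whose ISRE match is printed above, shows how single libraries can differ within the group. At 24 h its level was 2.32, 2.36, 2.56 and 1.15 CPM with peptide alone and 5.14, 5.34, 8.35 and 3.01 CPM with the agonist. In the 72 h libraries it was at 5.55, 7.22, 7.69 and 5.46 CPM with peptide alone and 5.89, 1.24, 1.17 and 1.21 CPM with the agonist. Agonist 72 h replicate 1 lay among the peptide-alone libraries, and the other 3 lay well below them. The difference was -2.85 ± 0.66 (adjusted p = 0.0445 with edgeR), lost in 13 of 16 leave-outs and without the 8 libraries that stand apart (0.105). Mx1, a GTPase that blocks influenza viruses, had a difference of -3.25 ± 0.72 (adjusted p = 0.0409), which lost the threshold in 11 of 16 leave-outs and without the 8 (0.105).

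Among 33 genes of the interferon-gamma response, 27 had a negative difference and 6 a positive one (44.5% of all tested genes). With a negative difference 4 passed the test (0.701% of all tested genes), among them Iigp1, Gbp10 and Gbp5. The median effects were 0.29 at 24 h and -0.26 at 72 h, smaller than in the type I list. Iigp1, an immunity-related GTPase, was at 17.04, 45.2, 21.8 and 24.8 CPM with peptide alone and 53.4, 66.4, 34.7 and 19.4 CPM with the agonist at 24 h. By 72 h it was at 9.05, 25.7, 13.9 and 29.1 CPM with peptide alone and 3.23, 2.89, 2.38 and 3.11 CPM with the agonist. The groups overlapped at 24 h and were apart at 72 h, with a difference of -3.42 ± 0.65 (adjusted p = 0.018 with edgeR). Its adjusted p was 0.0633 without peptide-alone 24 h replicate 3, 0.0667 without peptide-alone 72 h replicate 2 and 0.0651 without agonist 72 h replicate 4.

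Gbp10, a guanylate-binding protein of the same family as Gbp5, had a difference of -3.23 ± 0.62 (adjusted p = 0.0195 with edgeR), lost in 6 of 16 leave-outs. Its highest 24 h value was 69.8 CPM in agonist replicate 3 and its highest 72 h value was 82.9 CPM in peptide-alone replicate 2, while the other 3 of that group lay between 39.98 and 43.7 CPM. Without agonist 24 h replicate 3 the difference was -2.64 (adjusted p = 0.0538), and without peptide-alone 72 h replicate 2 it was -2.84 (adjusted p = 0.0701). Cxcl10, an interferon-induced chemokine, stood at 12.3, 30.5, 11.1 and 17.9 CPM with peptide alone and 85.8, 53.8, 30.5 and 18.7 CPM with the agonist at 24 h. Its values at 72 h were 1.26, 1.31, 2.37 and 5.46 CPM and 0.760, 0.331, 0.583 and 0.379 CPM. Its difference of -3.77 ± 0.97 did not pass (adjusted p = 0.0668 with edgeR), and it did without the 8 libraries that stand apart (-3.22, adjusted p = 0.0286, over a range of 0.00418 to 0.551 across its alternatives).

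Markers of other cells were measured beside these genes. The summed level of 16 dendritic cell markers had medians of 927 CPM with peptide alone and 1061 CPM with the agonist at 24 h, and of 1002 and 621 CPM at 72 h. Ccr7, which T cells also express, made up most of that sum, with medians of 793 and 896 CPM at 24 h and of 816 and 340 CPM at 72 h. The other dendritic markers summed to medians of 167 and 154 CPM at 24 h and of 173 and 249 CPM at 72 h. Without Ccr7 the sum was thus higher with the agonist at 72 h, with overlapping ranges of 157 to 295 and 243 to 319 CPM. The defining dendritic markers Itgax, Flt3 and Siglech averaged under 1 CPM in each of the 4 groups. Taken gene by gene, the 13 tested dendritic markers had median effects of -0.76 at 24 h (8 below 0) and -1.05 at 72 h (10 below 0). Their mean log2 CPM at 24 h was 2.44 to 2.86 with peptide alone and 1.61 to 2.21 with the agonist. At 72 h it was 1.28 to 2.41 and 1.03 to 1.61. The difference was negative for 10 and positive for 3 (44.5% of all tested genes), with Ccr7 alone past the test. Sums of 19 macrophage and monocyte markers, mostly Ctss, had medians of 68.7 and 68.3 CPM at 24 h and of 82.3 and 56.8 CPM at 72 h, and the range in peptide-alone 72 h libraries reached 202 CPM. Of the 19, 13 passed the filter on low counts. All 13 had a negative difference and 0 passed, and no marker was at 0 in all 16 libraries. The median of these differences was -2.76, and -4.06 to -0.14 over the alternatives. One library weighed in this. The mean log2 CPM was 2.51 in peptide-alone 72 h replicate 3 and -1.26 to -0.16 in replicates 1, 2 and 4. It was -1.17 to -0.97 with the agonist. That replicate was also the highest of its group for neutrophil, erythroid and NK cell markers. The part of these cells in the interferon result was not tested. In bulk RNA, fewer cells of a type and less RNA per cell cannot be told apart.

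**Figure D2:**
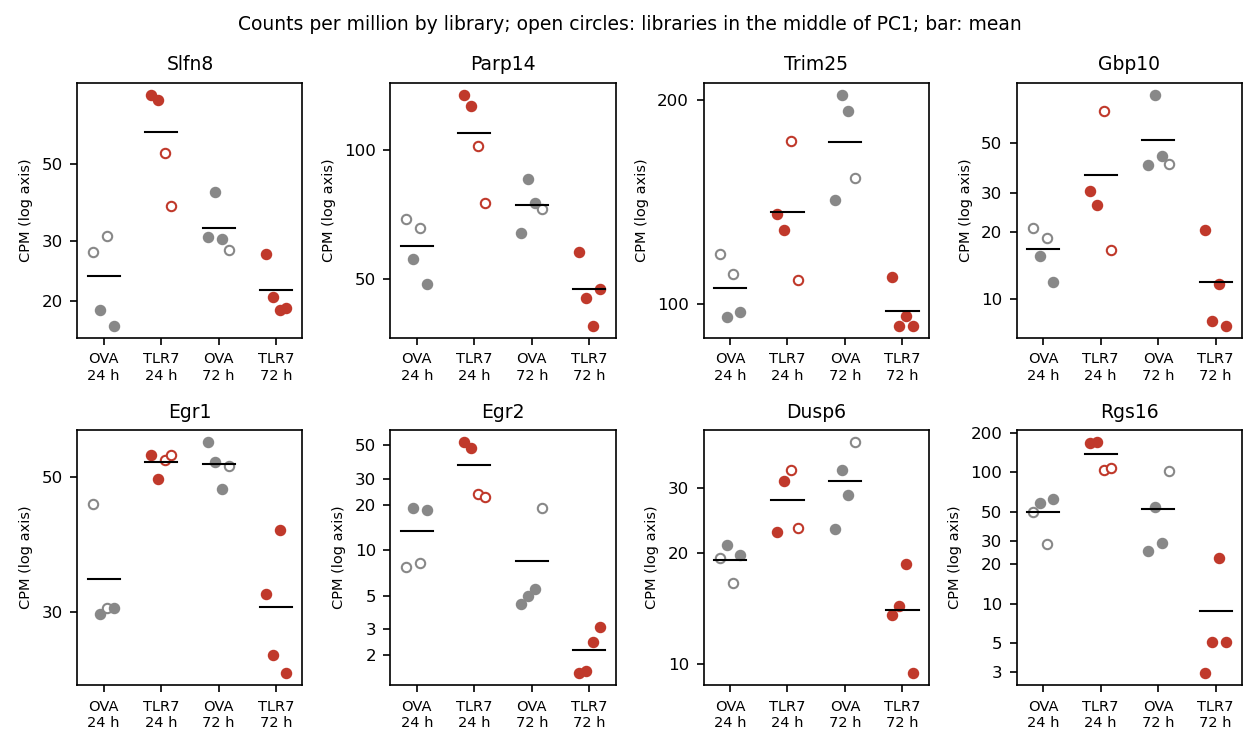
Level (CPM, log axis) of 8 genes in each of the 16 libraries by group, with peptide alone in grey, TLR7 agonist in red, libraries between the 2 clusters as open circles and group means as bars. For Slfn8, Parp14, Egr1, Egr2, Dusp6 and Rgs16 every agonist library lay above the peptide-alone libraries at 24 h and below them at 72 h, and for Trim25 and Gbp10 the groups overlapped at 24 h.

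Among 33 tested genes of early T cell receptor signalling, 24 had a negative difference and 9 a positive one (44.5% of all tested genes). The test was passed by 3, Egr1, Egr2 and Dusp6, all negative (0.701% of all tested genes). The effect was above 0 at 24 h for 20 of the 33 (46.1% of all tested genes) and below 0 at 72 h for 20 (58.5%). From higher to lower, 4 were reversed (2.55%). The median effect was 0.22 at 24 h and -0.38 at 72 h. Egr1 (chromosome 18, 34859823 to 34864984, plus strand), a transcription factor induced within minutes of receptor signalling in resting T cells, was at 45.1, 29.7, 30.4 and 30.4 CPM with peptide alone and 54.2, 49.5, 53.1 and 54.2 CPM with the agonist at 24 h. The 72 h libraries measured 57.02, 52.9, 47.6 and 52.00 CPM with peptide alone and 32.1, 25.4, 40.9 and 23.8 CPM with the agonist. The agonist groups lay above the peptide-alone group at 24 h and below it at 72 h without overlap. The difference of -1.41 ± 0.23 (adjusted p = 0.0165 with edgeR) joined a 24 h effect of 0.64 ± 0.16 and a 72 h effect of -0.78 ± 0.16. The adjusted p was 0.0525 without peptide-alone 72 h replicate 2 and 0.0558 without agonist 72 h replicate 4, and the call held in the other 14 leave-outs.

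Egr2, a related factor tied to restraint of T cell activation, was at 7.71, 18.99, 8.25 and 18.6 CPM with peptide alone and 52.7, 48.3, 23.9 and 22.7 CPM with the agonist at 24 h. By 72 h the levels were 4.42, 4.94, 5.51 and 19.1 CPM and 1.52, 1.57, 2.47 and 3.11 CPM. The groups did not overlap at either time, and peptide-alone 72 h replicate 4, a library between the clusters, was high within its group. The difference was -3.40 ± 0.77 (adjusted p = 0.0414 with edgeR), which fell to -2.55 without the libraries that stand apart and still passed there (adjusted p = 0.0286, over a range of 0.00155 to 0.527 across its alternatives). It lost the threshold in 12 of 16 leave-outs.

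Dusp6, which removes phosphate from ERK, stood at 19.4, 20.99, 16.6 and 19.7 CPM with peptide alone and 22.9, 31.5, 33.7 and 23.4 CPM with the agonist at 24 h. The 72 h libraries measured 23.2, 33.8, 28.7 and 40.2 CPM and 13.6, 14.4, 18.7 and 9.40 CPM. The groups were apart at both times, in opposite order. The difference was -1.71 ± 0.30 (adjusted p = 0.0171 with edgeR), at 0.0541 without peptide-alone 72 h replicate 2, 0.0558 without agonist 72 h replicate 4 and 0.114 without the 8 libraries that stand apart. Cd69, an early activation receptor, had an effect of 0.88 ± 0.24 at 24 h and -0.46 ± 0.24 at 72 h, and its difference of -1.34 ± 0.34 did not pass (adjusted p = 0.0613).

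Rgs16, which dampens signalling of G protein-coupled chemokine receptors, had one of the larger differences at levels above 5 CPM. It was at 49.5, 57.98, 28.3 and 62.1 CPM with peptide alone and 168, 170.2, 105 and 107 CPM with the agonist at 24 h. In the 72 h libraries it was at 25.3, 54.5, 28.8 and 103 CPM with peptide alone and 2.94, 5.12, 22.2 and 5.12 CPM with the agonist. Every agonist library was above the peptide-alone range at 24 h and below it at 72 h. The difference was -4.03 ± 0.76 (adjusted p = 0.018 with edgeR), and -3.49 without the 8 libraries that stand apart, where it did not pass (0.0868). The call was also lost without peptide-alone 24 h replicate 3 (0.0633), peptide-alone 72 h replicate 2 (0.0581) and agonist 72 h replicate 4 (0.0662).

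Tnfsf8, the ligand of CD30, followed with 70.99, 98.01, 48.5 and 100 CPM with peptide alone and 154, 233, 119.6 and 121 CPM with the agonist at 24 h. Its values at 72 h were 38.1, 100.3, 49.5 and 99.8 CPM and 9.87, 15.9, 33.5 and 10.3 CPM. Again the groups did not overlap, in opposite order at the 2 times. Its difference was -3.03 ± 0.56 (adjusted p = 0.018 with edgeR), with adjusted p values of 0.0557 without peptide-alone 24 h replicate 3, 0.0661 without peptide-alone 72 h replicate 2, 0.0651 without agonist 72 h replicate 4 and 0.0723 without the 8 libraries that stand apart. Tnfsf8 and Lta, described below with the positive differences, were the 2 of 21 tested T cell cytokines past the test (0.81% of all tested genes).

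Genes of cytokine signalling were among the negative differences too. Il6st, the shared signalling chain of the IL-6 receptor family, had an effect of 0.79 ± 0.33 at 24 h and -1.31 ± 0.33 at 72 h, a difference of -2.096 ± 0.47 (adjusted p = 0.041 with edgeR). It was at 207 CPM in peptide-alone 72 h replicate 3 and at 40.2 to 69.8 CPM in the other 3 libraries of that group, and the difference came to -1.38 at its smallest over the alternatives. Its call was lost in 10 of 16 leave-outs. Jak2, a kinase of interferon-gamma and IL-12 receptors, showed most of its change at 24 h, 0.95 ± 0.19 (adjusted p = 0.0409), against -0.25 ± 0.19 at 72 h. Its difference was -1.20 ± 0.27 (adjusted p = 0.0414), lost in 13 of 16 leave-outs. Stat4, which acts downstream of IL-12, had a difference of -1.13 ± 0.30 that did not pass (adjusted p = 0.0702).

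For other genes the agonist effect was near 0 at 24 h and negative at 72 h. Tox, a transcription factor of exhausted and memory CD8 T cells, was at 16.3, 16.9, 12.2 and 23.1 CPM with peptide alone and 20.4, 20.98, 29.5 and 16.9 CPM with the agonist at 24 h. Its values at 72 h were 14.3, 29.02, 36.8 and 23.6 CPM and 6.65, 5.87, 10.9 and 5.34 CPM. The groups overlapped at 24 h and were apart at 72 h, with a difference of -2.20 ± 0.39 (adjusted p = 0.0171 with edgeR). The call was lost without peptide-alone 72 h replicate 2 (0.0541) and agonist 72 h replicate 4 (0.0623), and without the 8 libraries that stand apart (0.0868). Bcl2l11, which encodes the death-promoting protein Bim, had effects of -0.04 ± 0.27 and -1.94 ± 0.28 (difference -1.89 ± 0.39, adjusted p = 0.0272), and lost the call in 7 of 16 leave-outs. Ccr7, the receptor that guides T cells to lymph nodes, had effects of 0.24 ± 0.21 and -1.05 ± 0.21 (difference -1.29 ± 0.30, adjusted p = 0.0432), and lost it in 13.

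Ifi203, Pydc3 and Pydc4, neighbours in the IFI200 region of chromosome 1, had 72 h effects of -3.68 ± 0.48, -4.23 ± 0.78 and -4.01 ± 0.67 and 24 h effects of -0.58 ± 0.42, 0.22 ± 0.65 and -0.16 ± 0.57. Ifi203 was at 11.3, 32.4, 55.9 and 31.1 CPM with peptide alone and 2.37, 1.98, 4.13 and 1.59 CPM with the agonist at 72 h. At 24 h it was at 26.8, 41.99, 23.6 and 33.05 CPM and 22.1, 21.4, 27.8 and 12.8 CPM. The overlap at 24 h gave way to a gap at 72 h. The 3 differences passed, at adjusted p of 0.0261, 0.0414 and 0.041 with edgeR, and lost the call in 6, 13 and 12 of 16 leave-outs. These genes have close copies, so reads may have been split between them in counting.

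Tbc1d4, a regulator of glucose transporter traffic, was at 2.95, 14.4, 21.2 and 7.37 CPM with peptide alone and 0.475, 0.248, 2.65 and 0.493 CPM with the agonist at 72 h, against 5.79, 9.22, 3.55 and 6.63 CPM and 5.58, 7.53, 10.6 and 6.02 CPM at 24 h. All agonist libraries were below the peptide-alone libraries at 72 h, and the groups overlapped at 24 h. Its difference was -3.73 ± 0.77 (adjusted p = 0.0292 with edgeR), lost in 7 leave-outs. Akap2 had a difference of -4.27 ± 0.97 (adjusted p = 0.0414) in which 1 library weighed: peptide-alone 72 h replicate 3 stood at 36.9 CPM and the other 3 at 1.68 to 5.14 CPM, and over the alternatives the difference was -2.40 at its smallest, with the call lost in 12 of 16 leave-outs.

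Igfbp7 had the most negative difference among the genes described here, -6.48 ± 1.52 (adjusted p = 0.0455 with edgeR), and did not keep its size. At 24 h it was at 2.79, 1.09, 0.578 and 0.795 CPM with peptide alone and 0.0439, 0.0954, 17.2 and 1.26 CPM with the agonist. The 72 h libraries measured 9.30, 18.3, 14.1 and 19.9 CPM and 0.0949, 0.0827, 1.70 and 0.303 CPM. The 24 h agonist mean came from replicate 3, a library between the clusters. Without the 8 libraries that stand apart the difference was -0.64 (adjusted p = 0.928, over a range of 0.00418 to 0.928 across its alternatives), while the 72 h groups did not overlap. Wisp1, whose product belongs to the CCN family, had a like pattern with 6.83 CPM in agonist 24 h replicate 3, and its difference was -5.49 ± 1.30 (adjusted p = 0.0469) with all libraries and -4.10 (adjusted p = 0.202) without the 8. Both calls were lost in 11 of 16 leave-outs.

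The 16 genes with a positive difference all had an effect below 0 at 24 h and above 0 at 72 h. Their median effects were -0.69 at 24 h and 0.92 at 72 h, and 7 were reversed, 2 arisen, 2 faded and 5 in none of the classes. Over all tested genes 2.12% were reversed in this order, 7.28% arisen and 1.59% faded. At 24 h 3 of the 16 passed alone (0.22% of tested genes), and at 72 h 9 did (3.62%). The libraries did not overlap for 7 at 24 h (6.64% of tested genes) and 8 at 72 h (8.7%). These counts follow in part from the difference that selected the genes, and no test is attached to them.

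Lta, which encodes lymphotoxin alpha, was at 62.6, 65.8, 104 and 49.3 CPM with peptide alone and 32.6, 26.3, 29.6 and 52.9 CPM with the agonist at 24 h. By 72 h the levels were 131, 34.3, 20.2 and 48.6 CPM with peptide alone and 177, 154, 133 and 179 CPM with the agonist. The 24 h groups overlapped through agonist replicate 4, and the 72 h groups did not, although peptide-alone replicate 1 came close at 131 CPM. The effects were -0.99 ± 0.38 and 1.46 ± 0.38, and the difference was 2.45 ± 0.54 (adjusted p = 0.0409 with edgeR). It lost the threshold in 11 of 16 leave-outs and without the 8 libraries that stand apart (0.172), and ranged from 2.16 to 3.29 over the alternatives.

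St3gal1, a sialyltransferase that masks O-glycans on CD8 T cells, was at 109.7, 72.2, 135 and 97.8 CPM with peptide alone and 48.3, 55.7, 53.2 and 87.3 CPM with the agonist at 24 h, and at 109, 70.6, 45.4 and 71.9 CPM and 181, 134, 141 and 111 CPM at 72 h. Its groups were apart at 72 h and overlapped at 24 h. The difference was 1.70 ± 0.32 (adjusted p = 0.0195 with edgeR), with the call lost in 5 of 16 leave-outs, among them those without peptide-alone 24 h replicate 3 (0.073) and peptide-alone 72 h replicate 2 (0.0701), and without the 8 libraries that stand apart (0.101). Wdr1, a cofactor of actin disassembly, had a difference of 1.48 ± 0.30 (adjusted p = 0.0265), with levels of 563, 291, 259.9 and 294 CPM with peptide alone and 827, 713, 562 and 735 CPM with the agonist at 72 h. In that group pair, peptide-alone replicate 1 (563 CPM) lay just above agonist replicate 3 (562 CPM), and the call was lost in 9 of 16 leave-outs.

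Uvrag, an autophagy gene, was at 69.7, 58.9, 86.8 and 54.2 CPM with peptide alone and 51.3, 50.3, 48.1 and 68.3 CPM with the agonist at 24 h. In the 72 h libraries it was at 82.3, 48.3, 50.4 and 49.6 CPM and 114, 108, 103 and 113 CPM. All 4 agonist libraries exceeded the peptide-alone libraries at 72 h. The difference was 1.23 ± 0.24 (adjusted p = 0.0218 with edgeR), lost in 6 of 16 leave-outs and without the 8 libraries that stand apart (0.131). Cndp2 (1.56 ± 0.36), Rftn1 (1.16 ± 0.26), Smo (1.25 ± 0.29), Tdrkh (1.42 ± 0.30), Obfc1 (1.34 ± 0.31) and Amigo1 (1.27 ± 0.29) passed with adjusted p values of 0.0346 to 0.0455 and lost the call in 9 to 14 leave-outs. Peptide-alone 72 h replicate 1 was the highest of its group for Lta, Wdr1, Uvrag, Rftn1 and Obfc1, on the side of the agonist libraries.

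**Figure D3:**
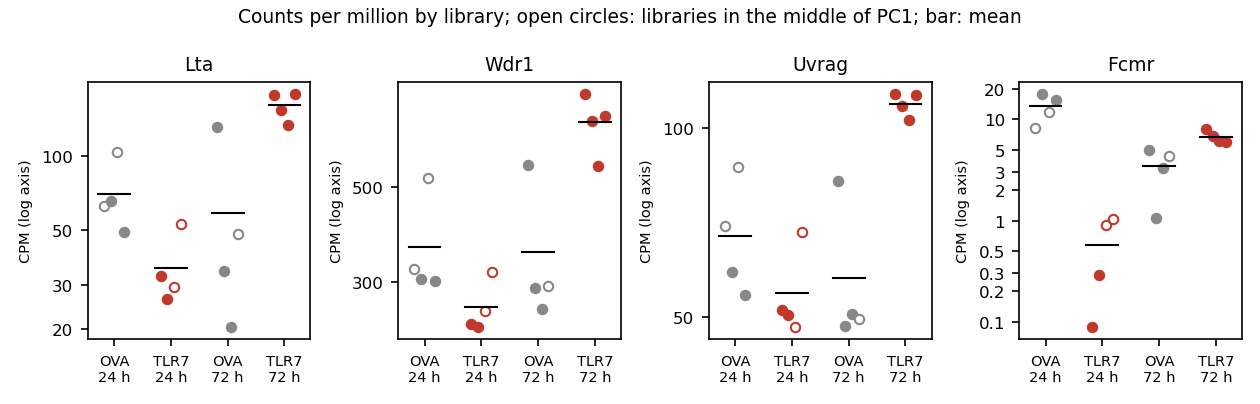
Level (CPM, log axis) of Lta, Wdr1, Uvrag and Fcmr in the 16 libraries, with peptide alone in grey, TLR7 agonist in red, libraries between the clusters as open circles and group means as bars. Lta, Uvrag and Fcmr were higher in all 4 agonist libraries than in the peptide-alone libraries at 72 h, and for Wdr1 1 peptide-alone library reached the agonist range.

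Fcmr, a receptor for IgM on B cells and other lymphocytes, had the largest positive difference, 5.42 ± 0.96 (adjusted p = 0.0171 with edgeR). At 24 h it was at 8.22, 17.9, 11.8 and 15.6 CPM with peptide alone and 0.0879, 0.286, 0.908 and 1.03 CPM with the agonist, of which replicates 1 and 2 were at or under the level of 3 counts (0.132 and 0.286 CPM). Its values at 72 h were 4.97, 1.06, 3.32 and 4.34 CPM and 7.97, 6.78, 6.05 and 5.99 CPM. The groups did not overlap at either time. The adjusted p was 0.0525 without peptide-alone 72 h replicate 2 and 0.0558 without agonist 72 h replicate 4, and the difference was 7.78 without the libraries that stand apart. H2-DMb2, a class II antigen-processing gene, was lower with the agonist at 24 h (-2.24 ± 0.35, adjusted p = 0.0283) and near 0 at 72 h (0.08 ± 0.34), a difference of 2.32 ± 0.49 (adjusted p = 0.0341) that was lost in 8 of 16 leave-outs.

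B cell markers were measured beside these. The sum of 22 B cell markers, Fcmr included, ran from 679 to 1610 CPM (median 1028) with peptide alone and from 464 to 660.3 CPM (median 521) with the agonist at 24 h. At 72 h it ran from 462 to 993 CPM (median 679) and from 189 to 354 CPM (median 222). Ighm, the heavy chain of IgM, held a large part of it, with group medians of 495 and 361 CPM at 24 h and of 551 and 172 CPM at 72 h. The other 21 markers summed to medians of 533 and 137 CPM at 24 h and of 134 and 59.4 CPM at 72 h. The median effect of the 22 was -1.86 at 24 h and -3.13 at 72 h. None of the 22 was at 0 in all 16 libraries, and Ms4a1, the gene of CD20, had a median of 20.9 CPM with peptide alone and 3.02 CPM with the agonist at 24 h, and of 1.22 and 0 CPM at 72 h. Of the 22, 16 had a negative difference and 6 a positive one (44.5% of all tested genes), with Fcmr alone past the test. The part of B cells in the Fcmr and H2-DMb2 results was not tested.

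Genes past the test at 24 h had smaller median effects at 72 h. The 24 h medians are those of genes chosen for passing there, and no test is attached to the change in median. The 2 effects share no library, but both come from 1 fit with a common scaling, filter and estimate of spread. The choice at 24 h therefore depends in part on the 72 h libraries. Without agonist 72 h replicate 1, 16 genes passed at 24 h, and without peptide-alone 72 h replicate 3, 59 did. The 22 genes higher with the agonist at 24 h had a median effect of 1.56 there and 0.33 at 72 h. At 72 h 16 of them kept the sign (72.7%, against 41.5% of all tested genes above 0) and 0 passed. The 10 genes lower at 24 h went from a median of -1.85 to -0.20, with 7 of the same sign and 0 past the test. The difference itself passed for 4 of the 22 and 3 of the 10. Without the 8 libraries that stand apart, 205 genes were higher at 24 h and 193 lower, with medians of 1.49 and -1.57 there and of 0.15 and -0.20 at 72 h. At 72 h 1 of the 205 and 17 of the 193 passed in the same direction, and 4 of the 205 in the opposite one. Without peptide-alone 24 h replicates 2 or 4, or agonist 24 h replicates 1 or 2, 0 genes passed at 24 h, and without agonist 24 h replicate 3 there were 146.

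Il21, a cytokine that sustains CD8 T cells and helps B cells, had the largest positive 24 h effect named here, 5.69 ± 1.19 (adjusted p = 0.0461 with edgeR). It was at 2.83, 0.318, 6.39 and 0.177 CPM with peptide alone and 192, 193, 86.6 and 55.9 CPM with the agonist at 24 h. The 72 h libraries measured 6.06, 0, 0.273 and 0.0797 CPM with peptide alone and 10.3, 8.10, 7.85 and 6.48 CPM with the agonist. All agonist libraries exceeded all peptide-alone libraries at both times, and the 72 h agonist level was well under that at 24 h. The 72 h effect was 2.34 ± 1.08 (adjusted p = 0.245). The difference of -3.35 ± 1.49 did not pass (adjusted p = 0.271) was -7.58 without the 8 libraries that stand apart (adjusted p = 0.0723, over a range of 0.0723 to 0.898 across its alternatives) and was 0.50 without peptide-alone 72 h replicate 1, whose 6.06 CPM is the highest of a group otherwise at 0 to 0.273 CPM.

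Sema7a, a membrane semaphorin of activated T cells, was at 21.7, 18.4, 19.2 and 22.1 CPM with peptide alone and 133, 103, 54.5 and 62.6 CPM with the agonist at 24 h. By 72 h the levels were 12.2, 10.7, 5.42 and 19.9 CPM and 15.00, 18.9, 12.96 and 13.3 CPM. The groups were apart at 24 h and overlapped at 72 h. The effect went from 2.12 ± 0.39 (adjusted p = 0.0283 with edgeR) to 0.32 ± 0.38, and the difference of -1.80 ± 0.54 did not pass (adjusted p = 0.109).

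Nfkbiz, an inducible nuclear IkB protein, had 51.2, 29.8, 31.1 and 33.2 CPM with peptide alone and 117, 115, 72.5 and 89.9 CPM with the agonist at 24 h. At 72 h its levels were 27.9, 33.5, 47.6 and 33.1 CPM and 33.1, 29.7, 54.6 and 23.9 CPM. An effect of 1.44 ± 0.27 (adjusted p = 0.0286 with edgeR) at 24 h stood against -0.01 ± 0.27 at 72 h, and the difference of -1.45 ± 0.38 did not pass (adjusted p = 0.0711). Armcx6 (1.54 ± 0.27, then 0.10 ± 0.26) and Tmem35 (2.102 ± 0.41, then 0.54 ± 0.40) had differences of -1.44 ± 0.37 and -1.56 ± 0.57 that did not pass either (adjusted p = 0.0672 and 0.174). Cd28, the main costimulatory receptor, had effects of 1.01 ± 0.22 and -0.14 ± 0.22 and a difference of -1.16 ± 0.31 (adjusted p = 0.0727).

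Cflar, which encodes the caspase-8 inhibitor c-FLIP, is a fading gene whose difference did pass. It was at 114, 102, 93.3 and 106 CPM with peptide alone and 252, 302, 168 and 185 CPM with the agonist at 24 h, and at 73.05, 106, 95.9 and 107 CPM and 87.8, 80.5, 106 and 70.4 CPM at 72 h. The wide gap at 24 h was followed by overlap at 72 h. The effect was 1.13 ± 0.20 (adjusted p = 0.0283 with edgeR) and then -0.15 ± 0.20, with a difference of -1.27 ± 0.28 (adjusted p = 0.0398) that was lost in 12 of 16 leave-outs. Birc3, another NF-kB target that blocks cell death, had a difference of -1.03 ± 0.24 (adjusted p = 0.0452), lost in 12 as well. These were the 2 of 30 tested NF-kB targets past the test (0.81% of all tested genes). Of the 30, 20 had a negative difference and 10 a positive one, against 44.5% positive over all tested genes.

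Among the genes lower with the agonist at 24 h were Cd79b, part of the antigen receptor complex of B cells (-2.39 ± 0.43, adjusted p = 0.0283 with edgeR), and Icosl, the ICOS ligand of B cells and other antigen-presenting cells (-2.23 ± 0.42, adjusted p = 0.0286). Their 72 h effects were -0.93 ± 0.42 and -0.19 ± 0.40, and their differences did not pass (adjusted p = 0.225 and 0.0871). Cd79b was at 15.5, 42.7, 15.6 and 30.4 CPM with peptide alone and 4.79, 4.10, 5.19 and 5.68 CPM with the agonist at 24 h. Fcer2a, the gene of the B cell IgE receptor CD23, was at 4.72, 17.04, 6.31 and 8.57 CPM with peptide alone and 0, 0.0954, 0.216 and 0.0381 CPM with the agonist at 24 h, and at 0.463, 0.0845, 1.87 and 1.99 CPM and 0, 0.0827, 0.0449 and 0.0758 CPM at 72 h. Its agonist libraries were below all peptide-alone libraries at both times, at 72 h by a narrow margin. The nearest 72 h values, 0.0845 CPM in peptide-alone replicate 2 and 0.0827 CPM in agonist replicate 2, were under the level of 3 counts (0.127 and 0.248 CPM). The lower sum of B cell markers given above goes with these genes, and its part was not tested. Slc25a10, a mitochondrial dicarboxylate carrier, went from -1.43 ± 0.29 to -0.19 ± 0.28 (difference 1.24 ± 0.40, adjusted p = 0.127).

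The genes past the test at 72 h were compared with their 24 h effects. The 467 genes lower with the agonist at 72 h had a median effect of -1.53 there and -0.08 at 24 h, with 266 of the same sign (57%, against 53.9% of all tested genes). The 60 higher genes had medians of 1.02 and -0.05. Of these 527 genes, 0 passed at 24 h and the difference passed for 72 of the lower and 9 of the higher genes. Without the 8 libraries that stand apart, 258 genes passed at 72 h, 241 of them lower. Those 241 had medians of -1.79 at 72 h and -0.47 at 24 h, 177 had the same sign at 24 h (73.4%, against 51.3% of all tested genes), 17 passed there in the same direction and 4 in the opposite one. The number past the test at 72 h was 92 without agonist 72 h replicate 4, 100 without agonist 72 h replicate 1 and 1370 without peptide-alone 72 h replicate 1.

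Chemokine genes gave large values with wide errors. Of 12 tested, 11 had a negative difference and 1 a positive one (44.5% of all tested genes), and 0 passed. Ccl3, an inflammatory chemokine, was at 104, 286, 75.6 and 186 CPM with peptide alone and 471, 459.7, 198 and 264 CPM with the agonist at 24 h. In the 72 h libraries it was at 2.40, 3.34, 4.60 and 235 CPM with peptide alone and 1.14, 0.744, 2.83 and 0.948 CPM with the agonist. The 235 CPM came from peptide-alone 72 h replicate 4, a library between the clusters, and the difference moved from -6.48 ± 1.68 (adjusted p = 0.0672 with edgeR) to -2.18 without the 8 libraries that stand apart. Xcl1, which draws cross-presenting dendritic cells, moved likewise from -4.75 ± 1.55 to -1.89, with 424 CPM in that same library.

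Proliferation genes had mostly positive differences, with 0 past the test in the fit of all libraries. Of 36 genes of the G1/S transition and DNA replication, all 36 had an effect below 0 at 24 h (median -0.63), and at 72 h 27 were below 0 (median -0.14). Their differences were positive for 32 (44.5% of all tested genes), with a median of 0.41 against -0.07 over all tested genes. None passed the edgeR test. Of the 36, 8 had an unadjusted p under 0.05, as did 16% of all tested genes. Without the 8 libraries that stand apart the median difference was 0.91 and all 36 were positive. Mybl2, a cell cycle transcription factor, had effects of -1.23 ± 0.28 and -0.06 ± 0.27 (difference 1.17 ± 0.39, adjusted p = 0.135). Of 32 mitotic genes 20 had a positive difference (median 0.10), against 31 (median 0.95) without the 8 libraries, 2 of them past the test there. Cdk1, the mitotic kinase, had a difference of 1.05 ± 0.37 (adjusted p = 0.161), and 1.74 without those libraries.

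**Figure D4:**
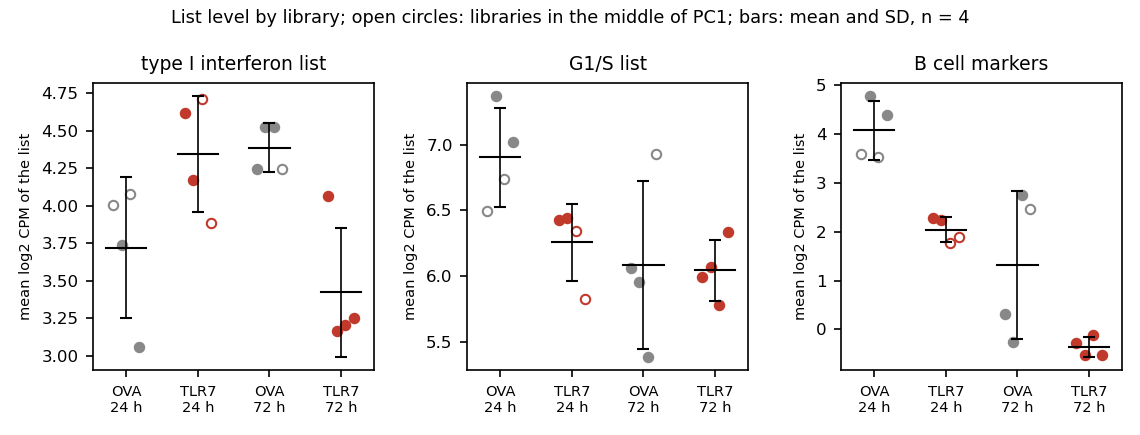
Mean log2 CPM of the type I interferon list, the G1/S list and the B cell markers in each of the 16 libraries, with group mean and SD (n = 4) as bars and libraries between the clusters as open circles. The interferon list lay at 3.17 to 4.07 in the 72 h agonist libraries and at 4.24 to 4.53 in the peptide-alone libraries, the G1/S list was lower with the agonist at 24 h (means of 6.26 and 6.91) and close at 72 h (6.04 and 6.08), and the B cell markers were lower with the agonist at 24 h (1.76 to 2.27, against 3.53 to 4.77) and overlapped at 72 h, where peptide-alone replicates 3 and 4 stood at 2.75 and 2.47 and the other 6 libraries at -0.53 to 0.31.

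Inhibitory receptors gave 12 negative differences among 16 tested genes, a median of -0.63, and 0 past the edgeR test. The other 4 differences were positive (44.5% of all tested genes). An unadjusted p under 0.05 was found for 7 of them, and for 16% of all tested genes. Pdcd1, which encodes PD-1, was at 98.9, 106, 59.1 and 108 CPM with peptide alone and 32.9, 28.3, 144 and 54.1 CPM with the agonist at 24 h. Its values at 72 h were 147, 203, 123 and 190.5 CPM and 20.9, 34.3, 57.5 and 45.8 CPM. The 24 h groups overlapped because agonist replicate 3 had the highest value of all 8 libraries, and the 72 h groups were apart. The effects were -0.51 ± 0.41 and -2.06 ± 0.43 (adjusted p = 0.776 and 0.00999 with edgeR). The difference of -1.55 ± 0.58 did not pass (adjusted p = 0.188) and was -0.18 without the 8 libraries that stand apart (adjusted p = 0.908, over a range of 0.138 to 0.908 across its alternatives).

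Tlr7 itself was at 9.05, 20.5, 9.69 and 11.4 CPM with peptide alone and 24.4, 21.8, 13.2 and 6.52 CPM with the agonist at 24 h, and at 2.19, 3.55, 4.41 and 5.46 CPM and 1.42, 0.992, 0.762 and 0.493 CPM at 72 h. The groups overlapped at 24 h and were apart at 72 h. Its difference of -2.53 ± 0.77 did not pass (adjusted p = 0.111 with edgeR). In the list of 26 tested TLR pathway genes, 21 differences were negative (median -0.36) and 5 positive (44.5% of all tested genes), and 0 passed. The unadjusted p was under 0.05 for 8 of the 26, against 16% of all tested genes.

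Of the cytotoxic effectors, 7 of 18 had a positive difference (44.5% of all tested genes) and 0 passed. Prf1, the gene of perforin, had effects of -0.26 ± 0.30 and 1.07 ± 0.31 (difference 1.34 ± 0.43, adjusted p = 0.124 with edgeR). Gzma, a granzyme, had effects of -1.15 ± 0.81 and 2.18 ± 0.83 (difference 3.33 ± 1.16, adjusted p = 0.153). Among 28 transcription factors of effector and exhausted cells, 22 differences were negative and 6 positive (44.5% of all tested genes). Tox alone was past the test (0.81% of all tested genes). Bcl6, a transcriptional repressor that acts in memory and follicular T cells, was at -2.81 ± 0.72 (adjusted p = 0.0652). Bach2, a repressor that holds back effector genes, had a difference of -1.45 ± 0.38 (adjusted p = 0.0702). The metabolic lists lay near the median of all genes, at 0.10 for 21 glycolysis genes, 0.08 for 30 genes of oxidative phosphorylation and 0.11 for 25 of cholesterol synthesis, with 0 past the test in each.

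**Figure D5:**
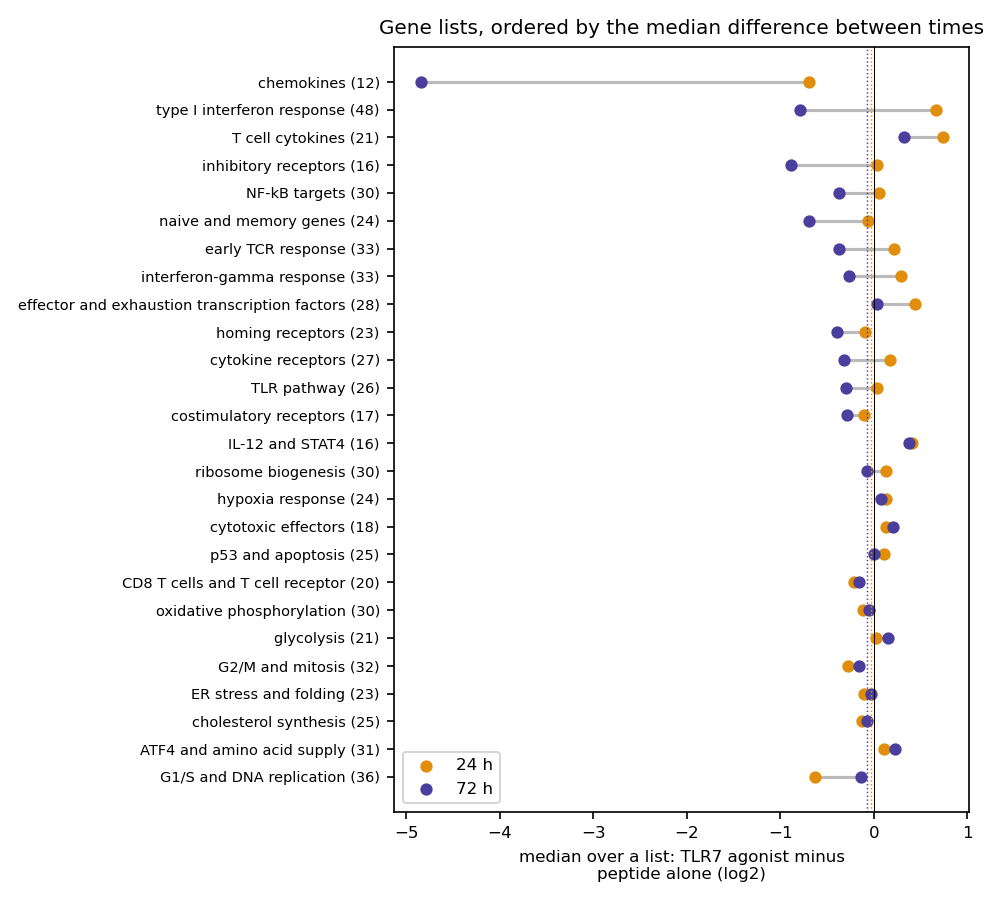
Median agonist effect (log2) at 24 h (orange) and 72 h (purple) over the tested genes of each list, number of genes in parentheses, ordered by the median difference between the times, with dotted lines at the medians of all tested genes. The type I interferon list moves from 0.67 to -0.79, and the G1/S list from -0.63 to -0.14.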

How the data were processed

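The authors deposited expected counts per gene, 1 table per library. Per the submitters' processing notes, STAR, RSEM and edgeR were used with build GRCm38. The annotation, the strand setting and all versions and roles are not stated in the sources used here. Overlapping and antisense genes and close copies are therefore uncertain. Of the deposited expected counts above 0, 28.7% are not whole. They were rounded and fitted for all 24 libraries with edgeR 4.0.16 (R 4.3.3, limma 3.58.1): TMM scaling, filterByExpr with a minimum count of 10 and total of 15, 1 term per group, 18 residual degrees of freedom, quasi-likelihood F test, Benjamini-Hochberg adjustment and a threshold of 0.05. Of 48526 genes, 14560 were tested. SE is the log2 value divided by the root of F. Positions are from GENCODE M21 on GRCm38, with 48058 IDs matched.

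The members of the gene lists and the comparison were chosen with earlier results of these data known. Genes were named by rule: Pdcd1, up to 12 with the largest differences in each direction among passing genes whose mean reached 5 CPM in a group, up to 2 per list with the smallest p, and 6 in each direction among genes past the threshold at 24 h and at 72 h. From these the text takes a selection made after their values were seen, and adds Rsad2 from outside the rule. A gene counted in the interferon lists is not reported here by name. The fit was tested on simulated data for the difference between times over 14560 genes: 97.5% of 40 genes changed by -3 (log2), 67.5% at -2, 65% at 2, 25% at -1 and 17.5% at 1 were recovered, with 3 false calls of 112. Alternatives were other scalings (RLE, none), no or stricter filters (minimum 50), DESeq2 1.42.0, robust estimation, the 16 libraries alone, a replicate block and leaving out each library; leaving out the 8 libraries that stand apart or the 5 shallow ones was chosen after seeing the data. No 2 libraries agreed within sampling noise (lowest chi-square per degree of freedom 4.58 over 276 pairs). Depth limits precision for low genes: 3 counts correspond to 0.114 to 0.286 CPM among the 16 libraries.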

Additional observations from a re-analysis of the deposited data

Results flagged for a closer look

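Single libraries far from the other 3 of their group were found in 23 of 272 groups of 4 examined (66 genes and 2 lists in 4 groups), 8.46%; chance alone gives about 1 in 20. For Pdcd1 the low library was peptide-alone 24 h replicate 3 (59.1 CPM), for Jak2 it was peptide-alone 72 h replicate 1 (119 CPM), for Armcx6 and Rsad2 peptide-alone 24 h replicate 4 (7.87 and 1.15 CPM) and for Birc5 peptide-alone 72 h replicate 3 (42.7 CPM). High values in peptide-alone 24 h libraries were those of Egr1 in replicate 1 (45.1 CPM), Akap2 in replicate 2 (9.68 CPM), Wdr1 in replicate 3 (525 CPM) and Bach2 in replicate 4 (315 CPM). Peptide-alone 72 h replicate 1 was high for 4 genes, at 563 CPM for Wdr1, 82.3 CPM for Uvrag, 94.6 CPM for Rftn1 and 50.6 CPM for Obfc1. Peptide-alone 72 h replicate 2 was high for Gbp10 (82.9 CPM), and replicate 4 for Egr2 (19.1 CPM) and Ccl3 (235 CPM). In the agonist 72 h group, replicate 1 was high for Rsad2 (5.89 CPM), replicate 3 was high for Ccr7 (614.5 CPM) and Cd69 (223 CPM), and replicate 4 for Cdk1 (125 CPM) and Birc5 (107 CPM). The type I interferon list was high in agonist 72 h replicate 1 (4.07, mean log2 CPM), and the G1/S list was low in agonist 24 h replicate 4 (5.82).

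The agonist effect differed between the times, past the edgeR test, for 38 genes described in the report. Among interferon-induced genes the differences (log2) were -2.01 for Slfn8, -1.53 for Parp14, -1.20 for Trim25, -3.25 for Mx1, -2.85 for Rsad2, -3.23 for Gbp10, -3.42 for Iigp1, -3.11 for Ifi203, -4.45 for Pydc3 and -3.85 for Pydc4. Among genes of receptor and cytokine signalling they were -1.41 for Egr1, -3.40 for Egr2, -1.71 for Dusp6, -4.03 for Rgs16, -3.03 for Tnfsf8, -2.10 for Il6st and -1.20 for Jak2. Genes of T cell fate and survival had -2.20 (Tox), -1.89 (Bcl2l11), -1.29 (Ccr7), -1.03 (Birc3) and -1.27 (Cflar). Tbc1d4 had -3.73, Akap2 -4.27, Igfbp7 -6.48 and Wisp1 -5.49. Positive differences were 2.45 for Lta, 1.70 for St3gal1, 1.48 for Wdr1, 1.56 for Cndp2, 1.23 for Uvrag, 1.16 for Rftn1, 1.25 for Smo, 1.42 for Tdrkh, 1.34 for Obfc1, 1.27 for Amigo1, 5.42 for Fcmr and 2.32 for H2-DMb2.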

How the results depend on the processing

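For the difference between the times, 118 genes passed with all libraries, and 72 (RLE scaling), 457 (DESeq2, 125 positive and 332 negative), 22 (fit on the 16 libraries alone), 45 (without the 8 libraries that stand apart) or 0 (without the 5 shallow libraries) under alternatives. Leaving out 1 library gave 0 to 752. At 24 h the 32 became 243 (DESeq2), 398 (without the 8) or 0 (without the 5), and 0 to 146 on leaving out 1 library. At 72 h the 527 became 934 (DESeq2), 142 (the 16 libraries alone), 258 (without the 8) or 0 (without the 5), and 92 to 1370 on leaving out 1 library. The numbers moved both up and down when fewer libraries were fitted. The cause was not tested for any of these alternatives. Of 66 genes described here and in the report, 65 kept the direction of their difference in all 26 alternatives, and Il21 reversed (0.50 without peptide-alone 72 h replicate 1, and -4.40 at its lowest on leaving out 1 library). These genes were chosen with their values in the main fit seen, and the alternatives share libraries with it. Kept directions follow in part from that. Replicate numbers did not pair the libraries: deviations of 60 same-numbered pairs correlated at -0.616 to 0.525 (median 0.04), 21 over 0.1, and 8 of 24 libraries correlated best with their own number. With the replicate number as a block 96 genes passed for the difference, 15 at 24 h, and the 72 h count stayed within 1.5 times of its value. On simulated data with these library sizes and the spread of each gene, 25% of genes changed by -1 (log2) were recovered for the difference between the times. Most changes of that size were thus missed in the simulation. It set no library apart from its group, so the rate for the real libraries may differ.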

Other observations

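Genes higher with the agonist at 72 h included Gcnt1 and Gcnt4, enzymes that branch O-glycans, with 72 h effects of 1.68 ± 0.46 and 1.89 ± 0.50 (log2 ± SE, adjusted p = 0.0435 and 0.0371 with edgeR) and 24 h effects of 0.11 ± 0.45 and 0.22 ± 0.49. Their differences of 1.57 ± 0.64 and 1.66 ± 0.69 did not pass (adjusted p = 0.23 and 0.237) and were 0.24 and 0.15 without the 8 libraries that stand apart. Dgat2, which makes triglycerides, had effects of 0.37 ± 0.38 at 24 h and 1.46 ± 0.39 at 72 h, and Zc3h12c, a relative of the ribonuclease regnase-1, had -0.16 ± 0.44 and 1.92 ± 0.46 (adjusted p = 0.327 and 0.111 for the difference).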
